A study of Homo sapiens with 2 samples.

Results

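The cytosolic ribosomal proteins are the protein parts of the 2 subunits that make up the ribosome of the cytoplasm. They were examined in HT-29 cells, a human colorectal adenocarcinoma line, grown as spheroids for 5 days on low-adhesion plates in stem cell media with B27, fibroblast growth factor and epidermal growth factor, or as monolayer with 10% fetal bovine serum. Both media were based on DMEM/F-12 and held the same antibiotic-antimycotic mix. Medium and growth form differed together between the conditions and cannot be told apart. RNA of each culture was hybridised to 1 Affymetrix U133 Plus 2.0 array, so there was 1 spheroid and 1 monolayer value per probe set, no replicate spread and no test. Genes were taken by symbol (RPL or RPS and a number, with an optional A, X, L or L1, and RPLP0, RPLP1, RPLP2 and RPSA), without pseudogenes and kinases, from probe sets assigned to 1 gene, and of several probe sets the one with the highest mean over the 2 arrays, on the log2 scale, was taken for the gene. This gave 59 genes with 120 probe sets, of 19775 genes in all. Of 84 RefSeq genes whose symbols fit, the other 25 have no probe set of their own in the annotation used and were not analysed here, RPL5, RPLP0, RPSA and RPS27A among them.

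Ribosomal protein mRNAs belong to the TOP mRNAs, which begin with a C and a tract of pyrimidines at the 5′ end. mTORC1 controls the translation of these mRNAs through that tract, with LARP1 as a protein that binds it, whereas MYC and other factors act on the transcription of the genes. Most of the proteins are needed in equal numbers for ribosome assembly, which starts in the nucleolus. Free RPL5 and RPL11, with 5S rRNA, bind MDM2, the ubiquitin ligase of p53. A few family members are paralogs, some with expression limited to certain tissues.

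The start of the genes is shown for members on which the results turn: those among the lowest (RPS9, RPL18, RPS3, RPL22) and the highest (RPS18, RPL34) differences of strongly hybridising probe sets, RPS6, the substrate of p70S6K, and paralogs, with RPS27 as the parent of RPS27L. Each window runs from 15 bases before the RefSeq start to the 15 bases that begin with it (GRCh38.p14), 5′ to 3′ on the gene's strand. Capitals mark an unbroken run of at least 6 C or T whose first counted base lies at most 5 bases from the start, and windows without capitals hold no such run.
RPS9 (chr19:54200843-54200872, + strand): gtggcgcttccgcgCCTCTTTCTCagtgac
RPL18 (chr19:48619164-48619193, - strand): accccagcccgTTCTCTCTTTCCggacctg
RPS3 (chr11:75399503-75399532, + strand): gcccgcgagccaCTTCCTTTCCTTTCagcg
RPL22 (chr1:6199581-6199610, - strand): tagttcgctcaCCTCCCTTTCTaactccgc
RPS18 (chr6:33272060-33272089, + strand): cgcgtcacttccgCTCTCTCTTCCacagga
RPL34 (chr4:108620561-108620590, + strand): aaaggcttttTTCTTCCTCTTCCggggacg
RPS6 (chr9:19380222-19380251, - strand): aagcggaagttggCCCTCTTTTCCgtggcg
RPS27 (chr1:153990747-153990776, + strand): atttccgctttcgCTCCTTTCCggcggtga
RPS27L (chr15:63157463-63157492, - strand): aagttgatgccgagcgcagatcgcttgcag
RPL22L1 (chr3:170870181-170870210, - strand): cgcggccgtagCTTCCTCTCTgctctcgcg
RPL7L1 (chr6:42879601-42879630, + strand): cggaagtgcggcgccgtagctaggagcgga

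Such a run was present at 41 of the 51 members with a RefSeq promoter entry, or 80.4%, and at 18.2% of 27305 genes with an entry. Of the 10 members without it, 4 were paralogs (RPS27L, RPL7L1, RPL26L1 and RPL10L), and RPL22L1 was the paralog that had it. The letters CTCTTTCC, searched on the gene's strand from 10 bases before the start over 30 bases, were in 5 of the 51 (9.80%), which were RPL18, RPL19, RPL35, RPS12 and RPS14, and in 0.256% of all. The shorter CTTTCC, which CTCTTTCC contains, was in 13 of 51 (25.5%) and in 1.91% of all. Over the whole 300 bases and on both strands, ACTTCCG, a core of ETS factor sites, was in 37.3% of members, 14.7% of the 10653 measured genes with an entry and 8.18% of all, and the E-box CACGTG in 7.84% of members, 12.4% of measured genes and 8.77% of all. Among measured genes the pyrimidine run was present at 19.9%. These matches are descriptions of the letters. The signal differences described next had a median log2 value of -0.08 over 40 measured members with the pyrimidine run and -0.06 over 10 without it.

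Signals are MAS5 intensities on a linear scale. Both arrays had the same trimmed mean of 500.1. Lower signals were raised to a floor of 62.7, which is their median over both arrays, before log2 was taken. By this floor 13183 genes were measured on at least 1 array. The 18 probe sets for hybridisation spike-ins were each lower in spheroids, by a mean log2 difference of -0.25. Of 10 colon epithelium markers 6 were above the floor on both arrays (summed signal of the 10, 76099 in spheroids and 86150.2 in monolayer). Of the 6, KRT20 (log2 difference 1.13), CDH1 (0.41) and EPCAM (0.08) were higher in spheroids, and KRT19 (-0.29), KRT8 (-0.33) and KRT18 (-0.39) lower. The 2 leukocyte markers with a probe set were under the floor on both arrays. Of 3 endothelial markers 1 was above it on both arrays (summed signal of the 3, 120.2 in spheroids and 193.8 in monolayer), and of 5 fibroblast markers COL1A1 was above it on both (summed signal of the 5, 2113 in spheroids and 1539.8 in monolayer). The part of these levels in the results was not tested.

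Ribosomal protein mRNAs differed little between HT-29 spheroids and monolayer, and most of the small differences pointed downward. In such bulk RNA fewer cells of a type and less RNA per cell cannot be told apart. Of the 59 genes 56 were measured on both arrays, and RPL36A, RPL3L and RPL39L were under the floor on both. The median log2 difference (spheroid minus monolayer) was -0.07, with quartiles of -0.16 and 0.01, where all measured genes had a median of -0.05 and quartiles of -0.33 and 0.25. At least 2-fold higher were 0 of 56 ribosomal protein genes, against 2.53% of all measured genes, and at least 2-fold lower 0, against 3.08%. A smaller threshold was a log2 difference of 0.32 in either direction, which is a signal 25% higher on one array than on the other. By it 1 gene was higher, where the share of all measured genes was 20.5%, and 5 were lower, where that share was 25.8%. In total 50 of the 56, or 89.3%, lay between these limits, compared with 53.7% of all measured genes. Among signals over 20000 the shares were close, though within that range the signals were not matched. Geometric mean signals from 20000 to 40000 were those of 29 member and 181 other probe sets, and those above 50000 of 17 and 11. Of the 50 members with signals over 20000 on both arrays 94.0% lay between the limits, and of the 135 other genes with such signals 93.3%. Past the limits were 0 of those 50 on the higher side and 3 (6%) on the lower, against 4.44% and 2.22% of the 135. Above 0 were 15 of 56 genes, or 26.8%, compared with 45.2% of all, and among the strong signals 11 of 50 members and 52 of 135 other genes (38.5%). The summed signal of the 56 probe sets was 4.36% of the total signal of all probe sets in spheroids and 4.50% in monolayer.

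**Figure D1:**
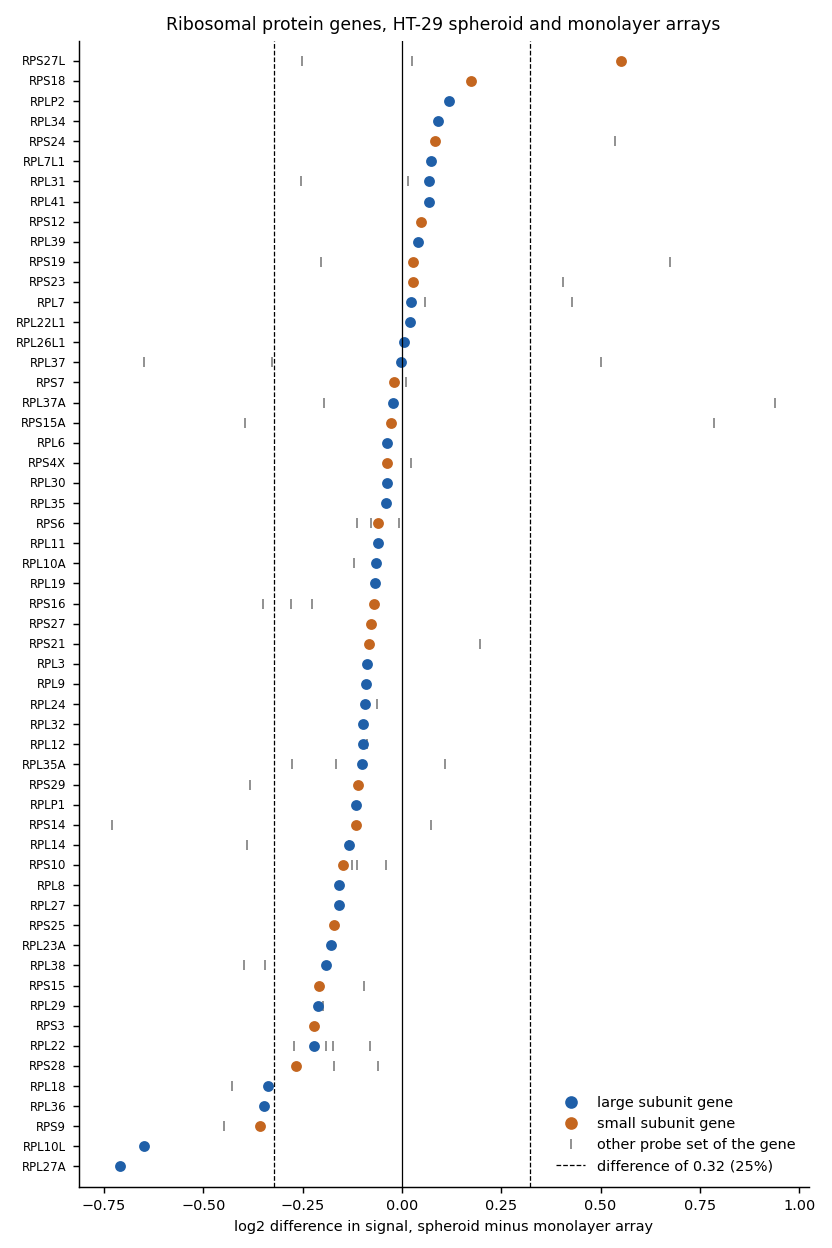
Spheroid minus monolayer log2 signal in HT-29 cells (x axis) for the 56 measured ribosomal protein genes (y axis), 1 array per condition. Dots show each gene by its chosen probe set (blue, large subunit; orange, small subunit), grey ticks the genes' other probe sets above the floor on at least 1 array, and dashed lines mark a difference of 0.32. All but 3 dots lie between -0.36 and 0.17, with RPL27A and RPL10L to the left and RPS27L to the right. Scaling to spike-ins instead puts 50 dots, and 67.2% of all measured genes, above 0.

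The direction of so small a shift depends on how the arrays are scaled. On the scale as deposited 15 genes were above 0 and 41 under it. Scaling the arrays to an equal median signal left 5 above 0, and scaling to the spike-ins put 50 above 0 with a median of 0.17. Of all measured genes these scalings put 38.3% and 67.2% above 0. The median of all measured genes moved in step, to -0.13 and 0.18. Relative to all measured genes the ribosomal proteins were at -0.02 as deposited, at -0.02 with the median scaling, at -0.00 with the spike-ins and at 0.03 with quantile normalization. With the spike-ins the 6 genes that stayed under 0 were RPL27A, RPL10L, RPS9, RPL36, RPL18 and RPS28, and with the median scaling the 5 above 0 were RPS27L, RPS18, RPLP2, RPL34 and RPS24. The directions given below are those on the deposited scale.

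**Figure D2:**
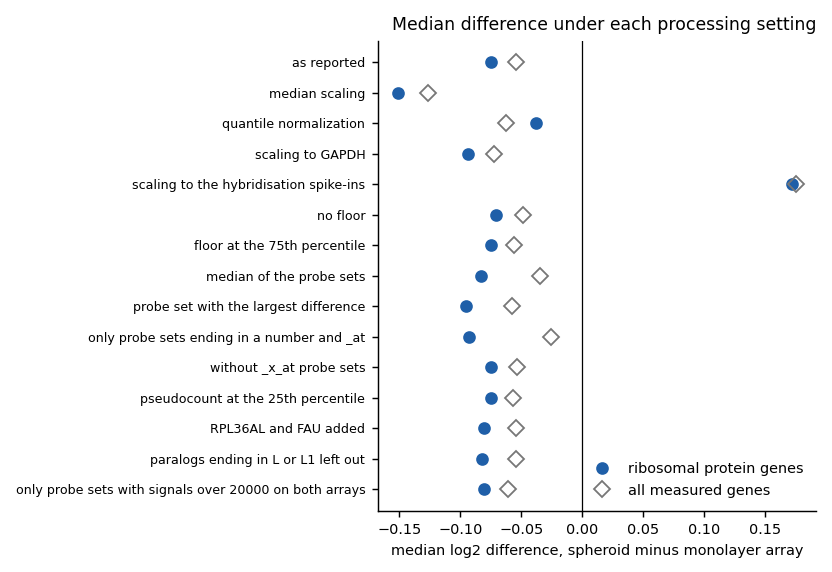
Median of the spheroid minus monolayer log2 signals in HT-29 cells (x axis) for the ribosomal protein genes (blue dots) and for all measured genes (open diamonds) under the reported and 14 other settings (y axis). Both medians move to about 0.17 with spike-in scaling, and in all 15 settings they differ from each other by at most 0.07.

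The 38 large subunit genes and the 21 small subunit genes had like distributions. Among 35 measured large subunit genes the median was -0.09, with 9 (25.7%) above 0. Among the 21 small subunit genes it was -0.07, with 6 (28.6%) above 0. Of all measured genes 45.2% were above 0. Proteins at the exit of the peptide tunnel, such as RPL19 and RPL31, had a median of -0.07 over 7 measured genes. The 5 measured genes of the list used for the mRNA channel and decoding side had a median of -0.21, led by RPS28, RPS3 and RPS15. In it RPS12 and RPS23 were above 0. Past the smaller threshold were 0 of these 5, against 25.8% of all measured genes on the lower side and 20.5% on the higher. The list does not hold RPS9, described below, which was at -0.36 and past that threshold. Of the genes mutated in Diamond-Blackfan anaemia, an inherited failure of red cell production, 14 were measured, with a median of -0.07. Of these 1 (7.14%), RPL18, was past that threshold on the lower side, against 25.8% of all measured genes.

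The genes farthest below 0 with strong signals were RPS9, RPL36 and RPL18. RPS9, which lies at the entry of mRNA into the small subunit, had a signal of 23188 in spheroids and 29692 in monolayer, a log2 difference of -0.36. RPL36, a large subunit protein, had 24334.5 in spheroids and 30960.3 in monolayer (-0.35). RPL18, also of the large subunit, had 32953 in spheroids and 41623 in monolayer (-0.34). Each of the 3 was thus 1.26-fold to 1.28-fold lower, just past the smaller threshold, and a second probe set of RPS9 and one of RPL18 were lower as well, at -0.45 and -0.43. RPS28, a small subunit protein near the exit of the mRNA channel, stood just inside it at -0.27, with 29406 in spheroids and 35369 in monolayer, while its dim probe sets were at -0.17 and -0.06.

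Next came genes with log2 differences near -0.2. RPS3, which contacts mRNA at the entry of its channel, had 37761 in spheroids and 44025 in monolayer (-0.22). RPL29 of the large subunit had 29353.5 in spheroids and 34009 in monolayer (-0.21), with its second probe set at -0.20. RPS15, near the decoding site, had 32286 in spheroids and 37310.2 in monolayer (-0.21). All 3 were above 0 with spike-in scaling (0.02, 0.03 and 0.04). For scale, strongly hybridising probe sets of one gene had a pooled SD of 0.07 over 14 genes, which holds no variation between cultures or arrays.

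The remaining genes under 0 by the largest amounts rest on dim probe sets. RPL27A, a large subunit protein, had 339.0 in spheroids and 554.7 in monolayer (-0.71). RPL10L, an autosomal retrogene of RPL10 that is used in the testis, had 105.3 in spheroids and 165.3 in monolayer (-0.65), near the floor. Of 56 measured members, 6 were represented by a probe set with signals under 20000 on at least 1 array, and these 6 had log2 differences from -0.71 to 0.55, against -0.36 to 0.17 for the other 50.

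On the other side of 0, RPS27L was the only one of the 56 genes past the smaller threshold on the higher side. It encodes a paralog of RPS27 that p53 induces and that binds MDM2. Its strongest probe set had 11116 in spheroids and 7582 in monolayer, a log2 difference of 0.55. The gene's other probe sets did not share it, with 741.2 in spheroids and 728.9 in monolayer (0.02) for one and 301.4 in spheroids and 358.7 in monolayer (-0.25) for the third, so the higher value belongs to 1 of 3 probe sets. RPS27 itself had 44493 in spheroids and 46989 in monolayer (-0.08).

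RPS18, a protein of the small subunit's head, was highest among genes with strong signals, with 50091.5 in spheroids and 44435 in monolayer (0.17). RPL34 of the large subunit had 39042 in spheroids and 36666 in monolayer (0.09). RPS24, one of the genes of Diamond-Blackfan anaemia, had 42524.5 in spheroids and 40132 in monolayer (0.08). These differences are all inside the smaller threshold, although a dimmer probe set of RPS24 was at 0.54. RPL31, RPL41 and RPL39, of which RPL31 and RPL39 lie at the tunnel exit, were at 0.07, 0.07 and 0.04, although dim probe sets of RPL31 were at 0.02 and -0.26, and RPS12 of the small subunit was at 0.05. RPLP2, an acidic protein of the stalk that recruits elongation factors, was at 0.12 by a dim probe set, with 210.1 in spheroids and 193.7 in monolayer. Its partner RPLP1 had 48105 in spheroids and 52088 in monolayer (-0.11).

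RPS6 and RPL11, which are linked to mTORC1 signaling and to p53, barely differed. RPS6, the substrate of p70S6K and the usual readout of mTORC1 activity at the protein level, had 53888 in spheroids and 56169 in monolayer (-0.06), and its 4 probe sets above the floor ran from -0.11 to -0.01. RPL11, which binds MDM2, had 32950.5 in spheroids and 34369 in monolayer (-0.06). These signals measure mRNA and say nothing of phosphorylation.

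Paralogs whose symbols end in L or L1 lay close to 0, apart from RPS27L and RPL10L. Of 7 such genes 5 were measured, 4 of them above 0 on the deposited scale, 3 with scaling to GAPDH and 1, RPS27L, with the median scaling. RPL22L1, the paralog of RPL22, had 32372 in spheroids and 31922 in monolayer (0.02), while RPL22, a large subunit protein that also binds viral RNA, had 29158 in spheroids and 34017.5 in monolayer (-0.22). All 5 probe sets of RPL22 were under 0, from -0.27 to -0.08, so the paralog's difference exceeded that of each. RPL7L1, a nucleolar relative of RPL7, had 13153 in spheroids and 12502 in monolayer (0.07), and RPL7 had 58074 in spheroids and 57204 in monolayer (0.02). RPL26L1 had 5514 in spheroids and 5492 in monolayer (0.01), and neither its parent RPL26 nor RPL10 has a probe set of its own. RPL3L of striated muscle and RPL39L of the testis were under the floor on both arrays, while RPL3 and RPL39 were at -0.09 and 0.04. With 5 measured genes, 2 of which rest on a value that another probe set or a near-floor signal puts in doubt, the group is a description.

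Probe sets of one gene often disagreed, most widely where signals were low. Of 34 members with several probe sets, 29 had at least 2 above the floor, and in 11 of these the probe sets lay on both sides of 0. The pooled SD within a gene was 0.28 over the 29. Probe sets spanned a log2 range of 1 or more in RPL37 (-0.65 to 0.50), RPL37A (-0.20 to 0.94) and RPS15A (-0.39 to 0.79), all large subunit proteins except RPS15A. The probe set that stands for each of these, with signals over 40000 on both arrays, was at -0.00, -0.02 and -0.03.

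The strongest probe sets, in contrast, held close together. With signals over 20000 on both arrays, 68 member probe sets had an SD of 0.11 and ran from -0.36 to 0.17, and 40 measured probe sets under that level had an SD of 0.41 and ran from -0.73 to 0.94. The class of probe set, which tells how far its probes match other transcripts, made less difference. Among the strong ones, 12 with a unique _at ID had a median of -0.08, 30 with _s_at one of -0.08 and 26 with _x_at, whose probes can match unrelated or pseudogene sequences, one of -0.11. A further 65 probe sets are assigned to a ribosomal protein gene together with other genes. Of these, 46 had signals over 20000, with a median of -0.08 and an SD of 0.11, close to the -0.09 of the 68.

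**Figure D3:**
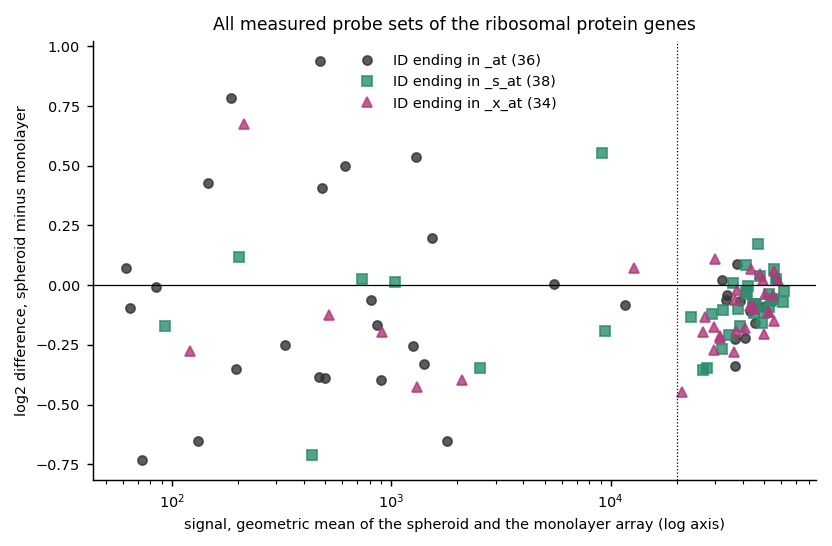
Spheroid minus monolayer log2 signal in HT-29 cells (y axis) against the geometric mean signal of the 2 arrays (x axis, log scale) for the 108 measured probe sets of the ribosomal protein genes, marked by the ending of the probe set ID. Right of the dotted line at 20000 the points lie between -0.45 and 0.17, most just under 0, and left of it they spread from -0.73 to 0.94.

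Among strong probe sets the medians differed between ranges of signal. Members with a geometric mean signal between 20000 and 40000 had a median of -0.17 over 29 probe sets, those between 40000 and 50000 one of -0.08 over 23, and those above 50000 one of -0.04 over 17. Probe sets of other genes had medians of -0.08 (181 probe sets), 0.01 (22) and 0.05 (11, few) in the same ranges, which were chosen after the values were seen. Within single genes the order varied. Of 14 members with several strong probe sets, the strongest had a higher log2 difference than the next in 6 and a lower one in 8. The widest gap in the first direction was that of RPS19, the gene most often mutated in Diamond-Blackfan anaemia, at 0.03 by its strongest probe set (57333 in spheroids, 56244 in monolayer) and at -0.20 by the next (46465.5 in spheroids, 53484 in monolayer). In the second it was that of RPL35A, another gene of this anaemia, at -0.10 and 0.11. The strongest probe set of RPS16, with 59630.4 in spheroids and 62625.5 in monolayer, was at -0.07, while 2 others with 34066 and 33309 in spheroids and 39879 and 40402.5 in monolayer were at -0.23 and -0.28. The highest signals of all were 68130.3 in spheroids and 68687 in monolayer. The part of the signal level in these differences was not tested.

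Genes on chromosome 19 made up much of the lower end. The 7 members there were RPS9, RPL36, RPL18, RPS28, RPS15, RPS16 and RPS19, with a median of -0.27, 6 of them under 0 and 3 past the smaller threshold on the lower side, where the share was 31.6% of the other measured genes on chromosome 19 and 25.8% of all. The 49 measured members on other chromosomes had a median of -0.07, with 2 past that threshold on the lower side, both by dim probe sets. The other measured genes on chromosome 19 had a median of -0.14 over 910, with 569 of them under 0, and genes on other chromosomes one of -0.05. This grouping was seen in the values first. Geometric mean signals of RPS9, RPL36, RPL18, RPS28 and RPS15 lay between 20000 and 40000, where member probe sets had a median of -0.17. Those of RPS16 and RPS19 lay above 50000, and these genes were at -0.07 and 0.03. The part of the signal level in this grouping was not tested. Between the GC content of the promoter and the difference, Spearman's rho across 50 measured members, which share both arrays, was -0.10. Across the 10653 measured genes with a promoter entry it was -0.07.

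Related lists were set beside the cytosolic ribosomal proteins, and their counts are read against the 25.8% of all measured genes past the smaller threshold on the lower side and the 20.5% on the higher. Mitochondrial ribosomal proteins, which build the separate ribosome of the mitochondrion, had a median of -0.21 over 75 measured genes, with 22 (29.3%) past it on the lower side and 2 (2.67%) on the higher. MRPS14 was the lowest, with 1744 in spheroids and 3029 in monolayer (-0.80), followed by MRPL2 (-0.78) and MRPL28 (-0.75), and MRPL1 was the highest at 0.61. Cytosolic initiation, elongation and release factors had a median of -0.11 over 44 genes, with 12 (27.3%) past it on the lower side and 4 (9.09%) on the higher. GSPT1, a release factor, was lowest at -0.84, followed by the initiation factor subunit EIF2B2 (-0.81) and the cap-binding protein EIF4E2 (-0.71), and EIF5, an initiation factor, was highest at 0.62. Nucleolar factors that assemble ribosomes had a median of 0.02 over 74 genes, with 11 (14.9%) past it on the higher side and 5 (6.76%) on the lower. TAF1D, a subunit of the RNA polymerase I selectivity factor, had 2422 in spheroids and 931.2 in monolayer (1.38), and BRIX1, a large subunit assembly factor, 1496 in spheroids and 764.9 in monolayer (0.97). POLR1A, the largest subunit of RNA polymerase I, was at 0.74, with 368.9 in spheroids and 220.3 in monolayer. The SD of the log2 differences was 0.18 for the 56 cytosolic ribosomal proteins and 0.28, 0.33 and 0.32 for these 3 lists. Among genes with signals over 20000 on both arrays it was 0.11 for the 50 members and 0.17 for the 135 others. Other genes with strong signals thus also had a narrower spread than these lists, though a wider one than the members. The part of the signal level in this was not tested.

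**Figure D4:**
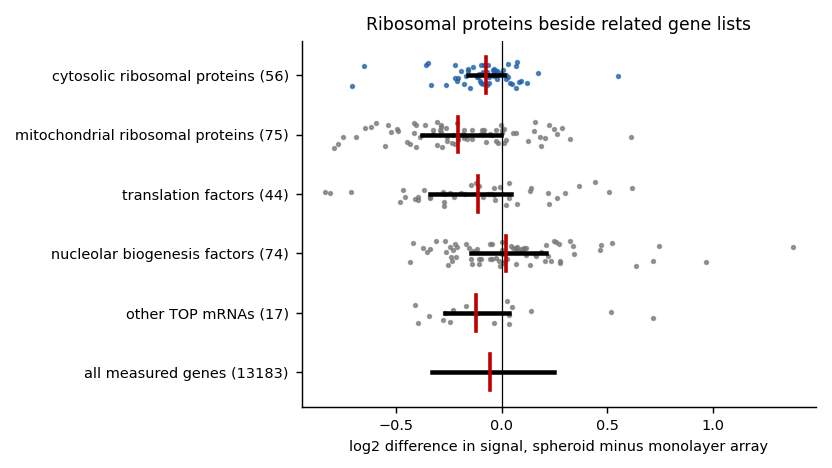
Spheroid minus monolayer log2 signals in HT-29 cells (x axis) of cytosolic ribosomal protein genes (blue points) and of related gene lists (grey points), with how many genes were measured given in parentheses. Red ticks are medians and black bars run between the quartiles; all measured genes are shown by median and quartiles only. The cytosolic ribosomal proteins have the shortest bar, and the nucleolar biogenesis factors are the one list shown with a median above 0 on the deposited scale. Some of the related lists share genes.

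Other TOP RNAs, which carry the same 5′ tract, code for translation factors and other proteins, or host small nucleolar RNAs as the non-coding GAS5 does. This list overlaps those above. It shares EEF2, EIF3F, EEF1A1 and further genes with the translation factors, and NPM1 with the nucleolar factors. The other TOP RNAs had a median of -0.12 over 17 measured genes, with 7 (41.2%) above 0, against 45.2% of all measured genes. Past the smaller threshold were 3 (17.6%) on the lower side, against 25.8% of all, and 2 (11.8%) on the higher, against 20.5%. EEF2, which moves the ribosome along mRNA, had 32224 in spheroids and 42845 in monolayer (-0.41), and its second probe set was at -0.23. EIF3F, a subunit of an initiation factor, was at -0.40, with 17120.4 in spheroids and 22564 in monolayer. EEF1A1, which brings aminoacyl-tRNA to the ribosome, had 68130.3 in spheroids and 66510.5 in monolayer (0.03). TPT1 was at 0.05. GAS5 had the highest value, 0.72, but was above the floor in spheroids alone (103.0 in spheroids, 60.8 in monolayer). FAU, which encodes a ribosomal protein of the small subunit as a fusion, had 29752 in spheroids and 33482.5 in monolayer (-0.17), and RPL36AL, a close relative of RPL36A, had 17551 in spheroids and 19676.5 in monolayer (-0.16). Both lay within the range of the 56 members, although the naming rule leaves them out.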

How the data were processed

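RNA of HT-29 spheroids and of HT-29 monolayer cells was labelled by the authors with the Affymetrix 3′IVT kit and hybridised to Human Genome U133 Plus 2.0 arrays. The deposited values are MAS5 signals, intensities on a linear scale, made by the authors with Affymetrix Expression Console (version not given in the sources used here), with no detection calls. The methods mention duplicates; precision is limited by the number of arrays here, 1 for each condition.

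Of 54675 probe sets, 41097 have 1 gene in the platform annotation, 1801 several and 11777 are not listed. Gene numbers of 41043 were matched to symbols of the GRCh38.p14 RefSeq table. Promoter windows come from RefSeq. Of several entries of a gene, a motif counted if any entry held it, and the entry with the longest run was printed. Signals were floored at their 50th percentile, log2 was taken and medians and counts past log2 differences of 0.32 and 1 (the methods' threshold) were computed with pandas 2.3.3 and numpy 2.4.6 (Python 3.11.15); figures were drawn with matplotlib 3.10.9. The computation was tested on simulated data. No test was possible with 1 array per condition. Alternatives were 4 scalings, 2 floors, 4 choices of probe set, a pseudocount and 2 definitions of the members, and probe sets over a signal of 20000 were added after the values were seen. Members and lists were chosen with earlier results of these data known. Genes named are the 10 lowest and 10 highest members, the paralogs and their parents, members of set roles, those whose probe sets span a log2 range of 1, and the leading genes of related lists. Others named complete a comparison and were chosen after their values were seen.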

Additional observations from a re-analysis of the deposited data

How the results depend on the processing

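The median log2 difference of the ribosomal protein genes moved by more than 0.1 under 1 of 14 alternatives, scaling to the hybridisation spike-ins, to 0.17 (0.16 for the large and 0.18 for the small subunit), because that scaling moves all genes upward alike. It put 50 genes above 0, 5 past a log2 difference of 0.32 on the higher side and 2 on the lower. The shares of all measured genes under this scaling were 67.2%, 36.5% and 12.8%. Median scaling left 5 genes above 0, against 38.3% of all measured genes. Quantile normalization left 2 past that threshold on the lower side, against 26.8% of all. Without a floor 3 were past it on the higher side, against 29.1% of all genes. Of them 2, RPL3L and RPL39L, were over 2-fold, from signals under the floor. The count on the higher side was 0 with the median of the probe sets, without the paralogs or over strong probe sets alone. The shares of all measured genes were 20.5% with the median of the probe sets and 20.5% without the paralogs. Among the 135 other genes with strong signals the share was 4.44%. The count was 2 without _x_at probe sets (20.6% of all) and 3 with unique _at probe sets (23.5%). With the latter 8 of 29 genes were above 0, against 47.8% of all. When each gene took its most different probe set, the count was 7, against 30.5% of all. On the lower side it was 11 with the last of these, against 32.7% of all. Over strong probe sets, a choice made after seeing the data, it was 3 of 50 (6%), against 2.22% of the 135 other genes with strong signals. RPS27L was at -0.25 with unique _at probe sets, a different probe set from the one reported. For 38 named genes, 331 of 396 values stayed within 0.1, 64 moved by more, 38 of them under spike-in scaling, and 1, that of RPS27L, turned from past the threshold. Of the 396, 36 changed sign, 35 of them from a value inside the threshold, 14 with the spike-ins and 9 with the median scaling; RPL31, RPL37A, RPS15A and LARP1 did so with another probe set. Leaving out an array leaves no comparison. No paired analysis was possible because each condition has 1 array.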

Other observations

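A list of genes of the mTORC1 and MYC circuits, which also holds MDM2, the ubiquitin ligase of p53, had 20 measured genes. Their median log2 difference between HT-29 spheroids and monolayer was -0.14. Past a log2 difference of 0.32 were 7 (35.0%) on the lower side, against 25.8% of all measured genes. On the higher side were 2 (10.0%), MDM2 and RPS6KB1, against 20.5%. AKT1S1, an inhibitory partner of mTORC1, had 73.8 in spheroids and 186.8 in monolayer (-1.34), near the floor, and its second probe set was at -0.68. LARP1, which binds the 5′ tract of TOP mRNAs, had 8575 in spheroids and 8179.8 in monolayer by its strongest probe set (0.07), while 2 dim probe sets were at -0.64 and -0.90. MDM2, the ligase that RPL11 and RPS27L bind, had 5199 in spheroids and 3047 in monolayer (0.77), and its 3 other probe sets with both signals over the floor ran from -0.12 to 1.46. RPS6KB1, the p70S6K that phosphorylates RPS6, was at 0.34, and EIF4EBP1, the repressor of cap-dependent translation that mTORC1 inactivates, at -0.52. MYC was at -0.66 and MTOR at -0.95, and MTOR had 278.9 in spheroids and 539.3 in monolayer, but was at -0.37 by the median of its probe sets and at -0.48 with the higher floor.

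Chaperones that escort new ribosomal proteins had a median of -0.29 over 11 measured genes. Past 0.32 were 4 (36.4%) on the lower side, against 25.8% of all measured genes. On the higher side was 1 (9.09%), against 20.5%. The list shares NACA and NAP1L1 with the other TOP RNAs. PDCD2, a chaperone of RPS2, had 1744 in spheroids and 3586 in monolayer (-1.04) by the probe set with the highest mean, whereas 3 others above the floor were at 0.09 to 0.23. ZNF622, a large subunit maturation factor, was at -0.61 and PDCD2L, a relative of PDCD2, at -0.51. HNRNPA1, a splicing factor with a TOP mRNA, was at 0.52, with other probe sets at 0.37 and 1.03.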
